A study of Homo sapiens with 27 samples.

Results

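The genes of the HIF subunits and of the enzymes that sense oxygen for them were followed in 786-O cells, an established human clear cell renal cell carcinoma (ccRCC) line. The members were the rows of the count table whose Ensembl identifier belongs to *EPAS1*, *HIF1A*, *HIF3A*, *ARNT*, *ARNT2*, *EGLN1*, *EGLN2*, *EGLN3*, *HIF1AN* or *VHL*, so that there were 10 members among 57773 identifiers. Of these, 9 passed the filter of at least 120 counts over all libraries, and *HIF3A* did not. The table holds 27 RNA-seq libraries of 9 populations with 3 replicates each. The control population, sgCtrl, carried a control guide. The other 8 populations carried guides against *KDM5C* (sgKDM5C #4 or sgKDM5C #5), against *KDM5D* (sgKDM5D #2 or sgKDM5D #4), or one of each in the 4 possible combinations. *KDM5C* and *KDM5D* encode related demethylases of methylated lysine 4 of histone H3 and lie on the X and the Y chromosome. Each population was a pool of cells infected with a lentivirus that brings Cas9 and the guides, not a clone, and all 9 populations share the lack of working VHL protein for which 786-O cells are known. No source used here says that replicates were separate infections, so the p-values measure the spread between these samples. All comparisons with sgCtrl share the same 3 control libraries.

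A HIF is a pair of proteins, an α subunit that oxygen controls and a β subunit that does not depend on it. *EPAS1* encodes HIF-2α, *HIF1A* encodes HIF-1α and *HIF3A* encodes HIF-3α, while *ARNT* and *ARNT2* encode the β partners. In the presence of oxygen the prolyl hydroxylases, encoded by *EGLN1* (PHD2), *EGLN2* (PHD1) and *EGLN3* (PHD3), modify the α subunits, which lets the VHL protein bind them and mark them for destruction. *HIF1AN* encodes FIH, an asparaginyl hydroxylase that blocks the binding of coactivators. In most ccRCC tumours *VHL* is lost and the α subunits stay stable in oxygen, and 786-O cells are widely used as a line that relies on HIF-2α. *EGLN3* is itself a known target of HIF. Counts of mRNA do not report the protein, on which the oxygen-dependent step acts. In a bulk sample, fewer cells that make an mRNA and less of that mRNA per cell cannot be told apart.

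The stretches of 250 bases upstream of the annotated gene start are shown for the α subunit genes whose levels changed most and for *EGLN3*. The highest mean of *EGLN3* was in the population with the highest mean of *EPAS1*. They are RefSeq sequences on GRCh38.p14, a later build than that of the study, written in the direction of the gene and ending at the base before the start. Capitals mark the letters ACGTG or GCGTG on either strand, the core to which HIF binds; the first of these is also contained in CACGTG, the site of other basic helix-loop-helix factors.
EPAS1, plus strand, chr2:46297157-46297406: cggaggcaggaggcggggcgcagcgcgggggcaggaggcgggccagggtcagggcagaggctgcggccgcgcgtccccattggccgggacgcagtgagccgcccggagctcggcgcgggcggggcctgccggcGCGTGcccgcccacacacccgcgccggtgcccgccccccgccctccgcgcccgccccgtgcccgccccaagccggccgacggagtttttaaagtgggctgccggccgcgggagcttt
HIF1A, plus strand, chr14:61695263-61695512: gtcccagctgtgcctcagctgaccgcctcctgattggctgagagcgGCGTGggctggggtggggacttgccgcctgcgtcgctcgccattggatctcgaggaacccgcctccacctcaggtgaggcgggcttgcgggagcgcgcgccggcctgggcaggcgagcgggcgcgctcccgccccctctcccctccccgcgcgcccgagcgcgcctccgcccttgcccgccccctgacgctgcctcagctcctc
EGLN3, minus strand, chr14:33951075-33951324: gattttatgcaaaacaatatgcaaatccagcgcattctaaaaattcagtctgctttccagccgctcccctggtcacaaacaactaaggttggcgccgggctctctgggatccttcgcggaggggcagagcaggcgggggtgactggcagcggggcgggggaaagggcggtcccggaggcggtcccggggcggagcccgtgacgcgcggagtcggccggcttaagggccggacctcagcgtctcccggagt
The *EPAS1* stretch holds 1 match, at position -117 from the start, and the *HIF1A* stretch holds 1, at -204. *HIF1A* has another annotated start, further along the gene, whose stretch is not shown and holds 0 matches. The *EGLN3* stretch holds 0 matches, which says only that these letters are not in this window. At least 1 match stands in 43.2% of 35116 promoter stretches of this length, and in 5 of the 12 stretches of the 8 members that had any in the reference used, since some members have several annotated starts. A match is a description and not a site shown to be bound.

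On GRCh37, the build of the study, *EPAS1* lies on chromosome 2 (46520806 to 46613836, plus strand) with 16 exons in its canonical transcript, and *HIF1A* on chromosome 14 (62162231 to 62214977, plus strand) with 15. *EGLN3* lies on the same chromosome as *HIF1A*, with a canonical transcript of 5 exons (34393433 to 34420280, minus strand). *ARNT* (150782189 to 150849184) and *EGLN1* (231499497 to 231558033) both lie on the minus strand of chromosome 1. *ARNT2* lies on chromosome 15 (80696692 to 80890274), *HIF1AN* on chromosome 10 (102288829 to 102319755) and *VHL* on chromosome 3 (10183462 to 10195351), each on the plus strand. *HIF3A* (46800299 to 46846690) and *EGLN2* (41304901 to 41314339) lie on the plus strand of chromosome 19. *EGLN2* overlaps a read-through gene, RAB4B-EGLN2, on its own strand, so its counts are uncertain. *HIF1A* overlaps antisense genes, and the counting step is not stated to use strand. The antisense gene HIF1A-AS1 had 40 counts over all 27 libraries and at most 6 in any of them, and HIF1A-AS3 had 6.

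Each library held 20172482 to 43383929 counts (median 26290323). *KDM5C*, given like all levels as CPM, the counts scaled to a common library size, was 124 ± 7.28 CPM (SD, n = 3) in sgCtrl. The guides against it left 35 ± 2.54 CPM (sgKDM5C #4) and 33.2 ± 3.25 CPM (sgKDM5C #5). *KDM5D* mRNA was higher than in sgCtrl (12.8 ± 1.58 CPM) in all 8 mutant populations, at 34.7 ± 2.38 CPM in the libraries labelled sgKDM5D #2 and 19.9 ± 1.24 CPM in those labelled sgKDM5D #4. The counts therefore give no check of the sgKDM5D labels, and directions drawn from these libraries rest on the labels. The study shows western blots of KDM5C and KDM5D protein in 786-O cells with these guides. The level of an mRNA does not report whether its protein was lost. The 3 libraries labelled sgKDM5D #4 stood apart from the rest, with 81 tested genes (0.476%) above 8 times the level in every other library, against 0 to 5 in the other populations. Another 4 libraries stood apart from their own replicates on the first component of the spread within populations, namely sgCtrl replicate 2, sgKDM5C #5 replicate 2, sgKDM5C #4 sgKDM5D #2 replicate 1 and sgKDM5C #4 sgKDM5D #4 replicate 3. The summed level of the 10 renal markers found ranged from 2630 to 3550 CPM, of which VIM made up most, and PAX8 lay between 281 and 367 CPM as a population mean. Other markers varied more between the population means, KRT8 from 507 to 993 CPM, KRT18 from 51.0 to 108 CPM and CDH6 from 79.1 to 200 CPM. PAX2 ranged from 10 to 34.1 CPM and MME from 0.256 to 15.5 CPM, and AQP1 was at most 12 counts in any library. LRP2 and CUBN were also low, at 0.312 to 0.953 CPM and 0.664 to 2.19 CPM as population means. In sgKDM5C #5 sgKDM5D #2 the means of KRT8 and KRT18 were lowest and those of CDH6 and PAX2 highest. The part of this variation in the results was not tested. The 9 markers of blood, endothelial, liver and melanocytic cells that were found summed to 0.63 to 1.91 CPM, with HBB and HBA1 at 0.

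Among the members, *EPAS1* and *EGLN3* had the highest level per length of transcript in sgCtrl cells, and *HIF1A* was the least abundant of the 9 that were tested. Per kilobase of the canonical transcript, *EPAS1* was at 17.7 ± 1.2 CPM (SD, n = 3) and *EGLN3* at 17.5 ± 3.88 in sgCtrl, a difference within the spread. *EGLN1* at 10.8 ± 1.87 and *ARNT* at 10.6 ± 0.44 CPM per kilobase followed. *HIF1AN* (7.73 ± 0.634) and *VHL* (7.5 ± 0.967) lay lower on this scale, which for *HIF1AN* depends on a canonical transcript of 12927 bases. *EGLN2* at 2.62 ± 0.672, *ARNT2* at 1.76 ± 0.227 and *HIF1A* at 1.24 ± 0.195 CPM per kilobase closed the order. *HIF3A* had 16 counts in all libraries together and 0 to 3 in any of them, which is at the floor of 3 counts, so no change of it could be measured at this depth.

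**Figure D1:**
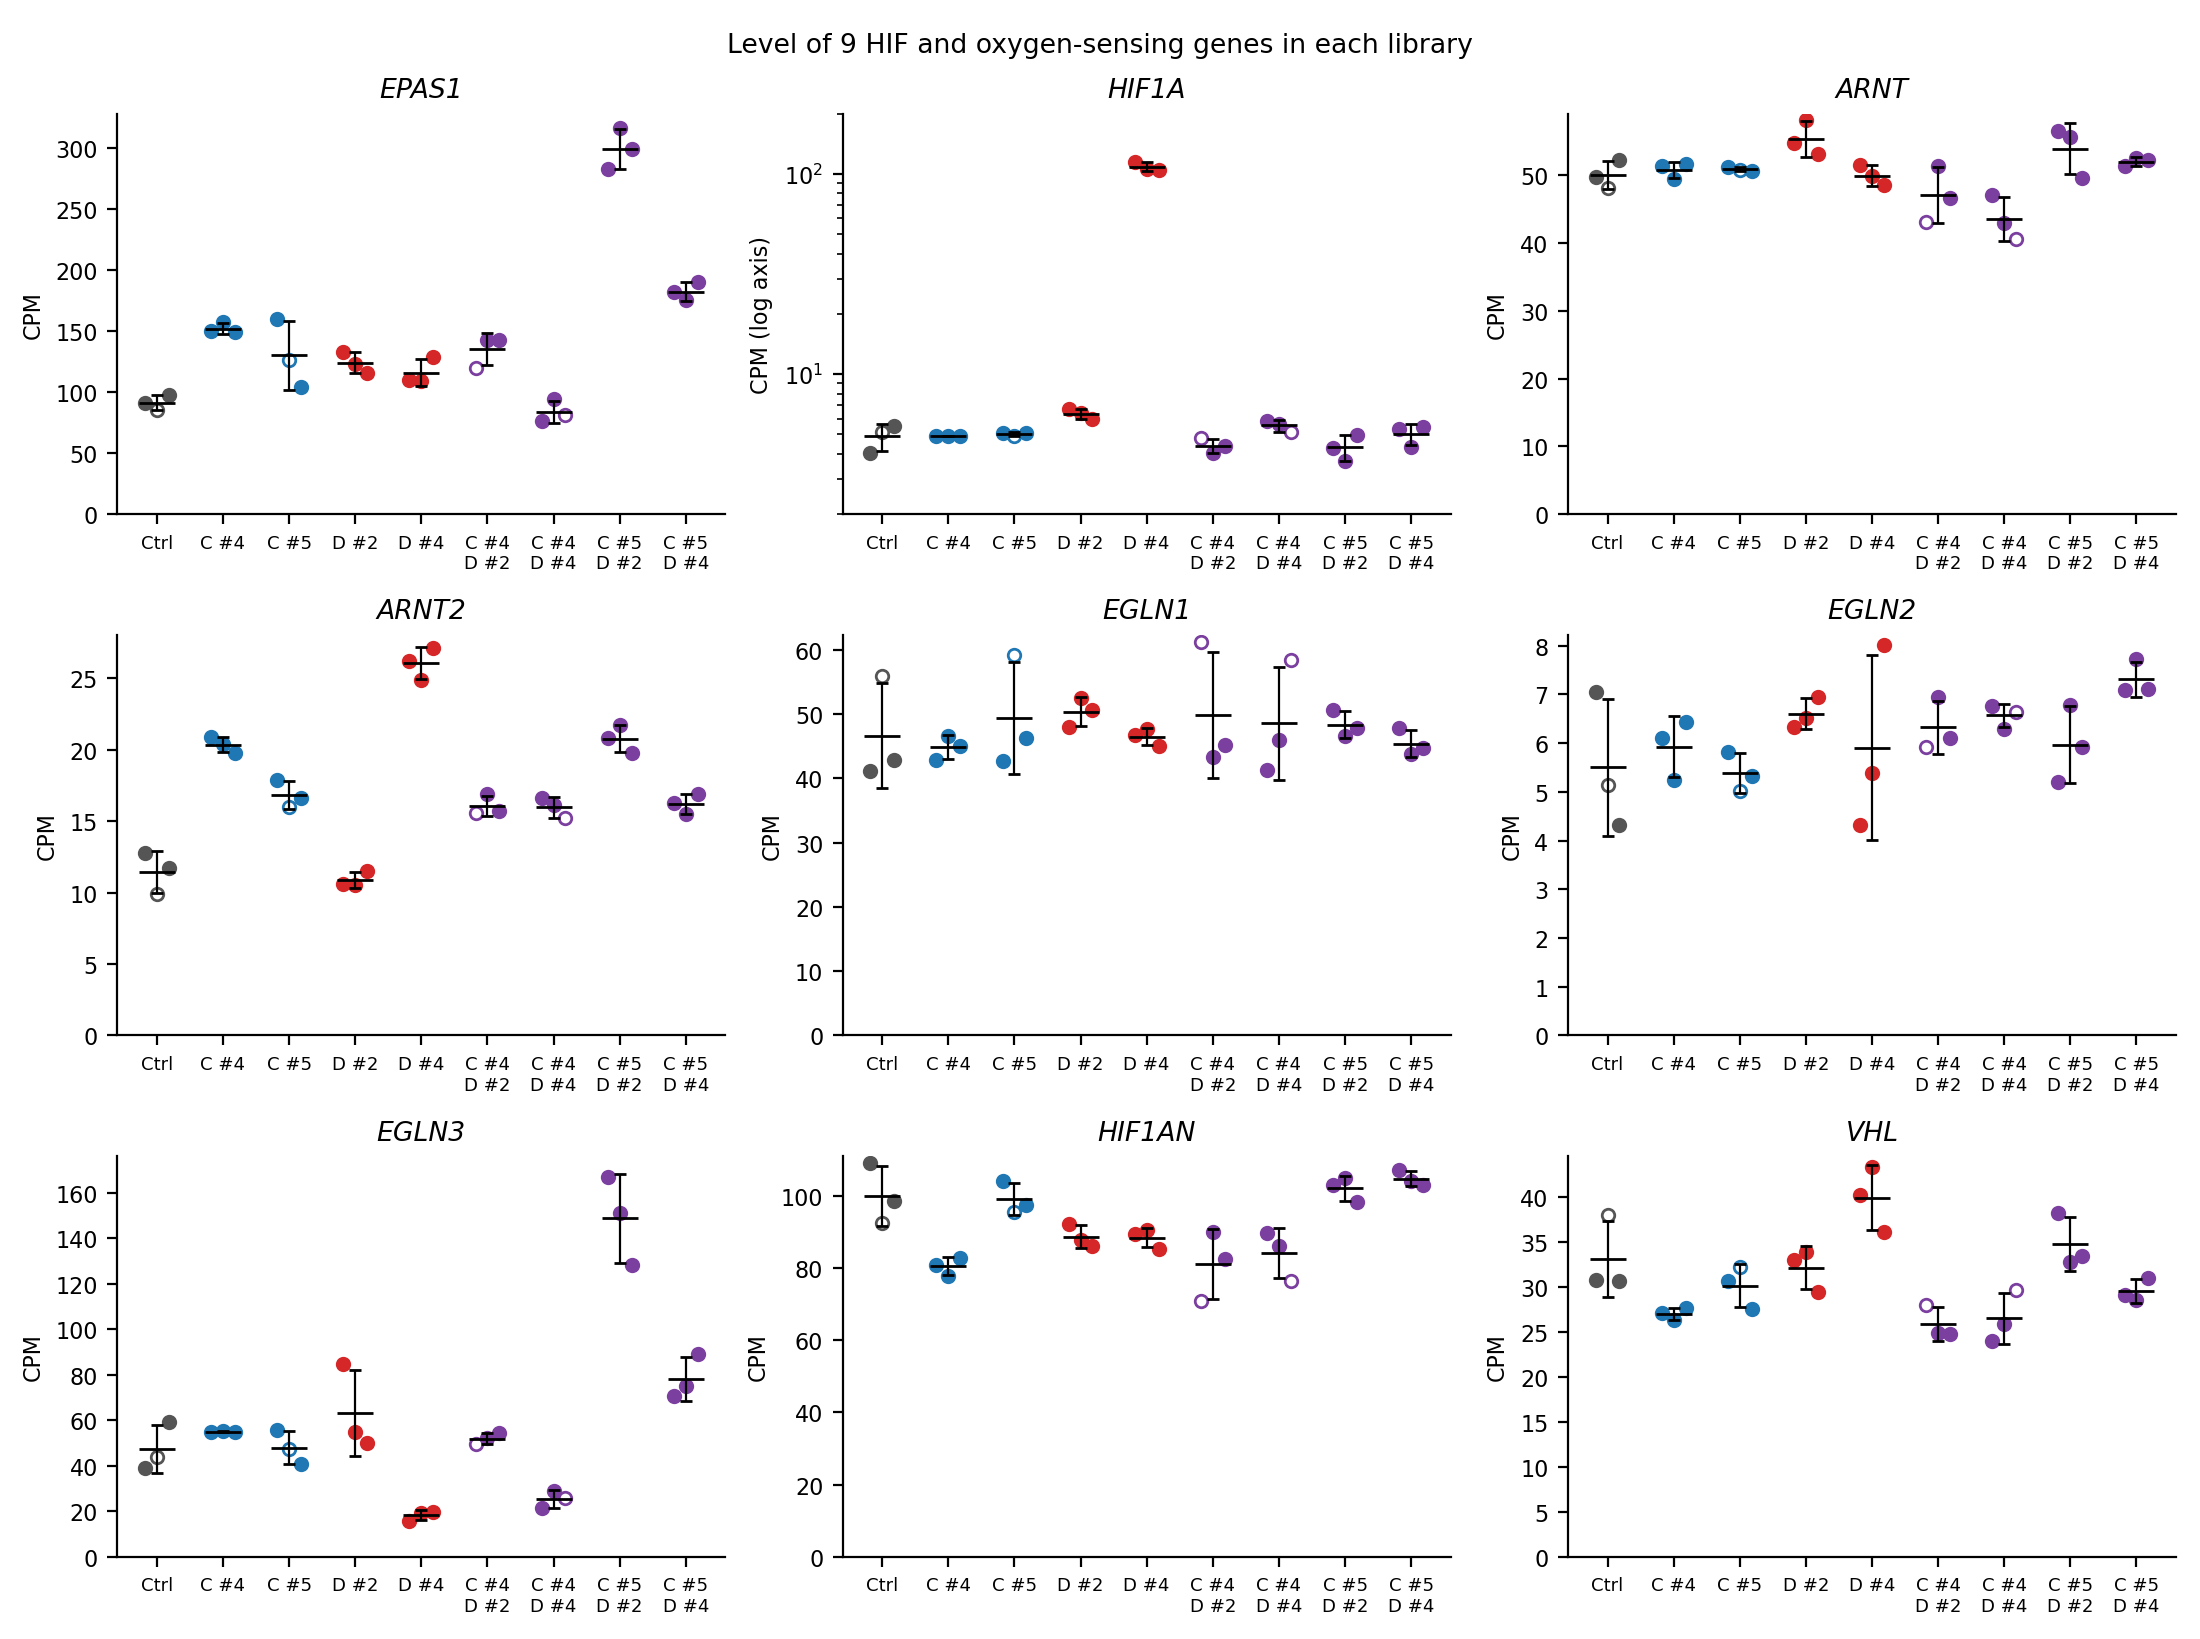
Level of the 9 tested members in CPM by population (log axis for *HIF1A*; Ctrl, C and D stand for sgCtrl, sgKDM5C and sgKDM5D). Points are the 3 libraries of a population, open where the library stood apart from its replicates, and bars are mean and SD; *HIF1A* sits between 3.69 and 6.71 CPM in 24 libraries and between 105.0 and 115.0 CPM in those labelled sgKDM5D #4, while *ARNT* stays between 40.6 and 58.2 CPM.

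The question asked of these populations was whether loss of *KDM5C*, of *KDM5D* or of both changes transcription. A member was called where edgeR's quasi-likelihood test gave an adjusted p under 0.001 and the change was over 1.5-fold. In the sgKDM5C #4 population 2 of 9 tested members were called, against 4.98% of all tested genes, and in sgKDM5C #5 there were 0, against 5.0%. The libraries labelled sgKDM5D #2 gave 0 called members (3.23% of all genes) and those labelled sgKDM5D #4 gave 3 (18.1%). Of the double mutant populations, sgKDM5C #5 sgKDM5D #2 had 3 called members (12.7%) and sgKDM5C #5 sgKDM5D #4 had 1 (7.18%). The population sgKDM5C #4 sgKDM5D #4 had 1 (9.1%) and sgKDM5C #4 sgKDM5D #2 had 0 (6.06%). At an unadjusted p under 0.05 the populations with 0 called members had 2 (sgKDM5C #5, beside 31.7% of all tested genes), 5 (sgKDM5D #2, beside 33.9%) and 4 (sgKDM5C #4 sgKDM5D #2, beside 35.3%). Every call against sgCtrl fell on *EPAS1*, *HIF1A*, *ARNT2* or *EGLN3*. The 3 libraries of a population lay all above or all below those of sgCtrl for 4 members in sgKDM5C #4 (39.1% of all tested genes), 2 in sgKDM5C #5 (29.3%), 4 in sgKDM5D #2 (35.4%) and 5 in sgKDM5D #4 (51.2%). For the double mutant populations these were 4 in sgKDM5C #4 sgKDM5D #2 (34.5%), 5 in sgKDM5C #4 sgKDM5D #4 (42.6%), 3 in sgKDM5C #5 sgKDM5D #2 (48.5%) and 4 in sgKDM5C #5 sgKDM5D #4 (41.5%), shares near those of all genes.

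**Figure D2:**
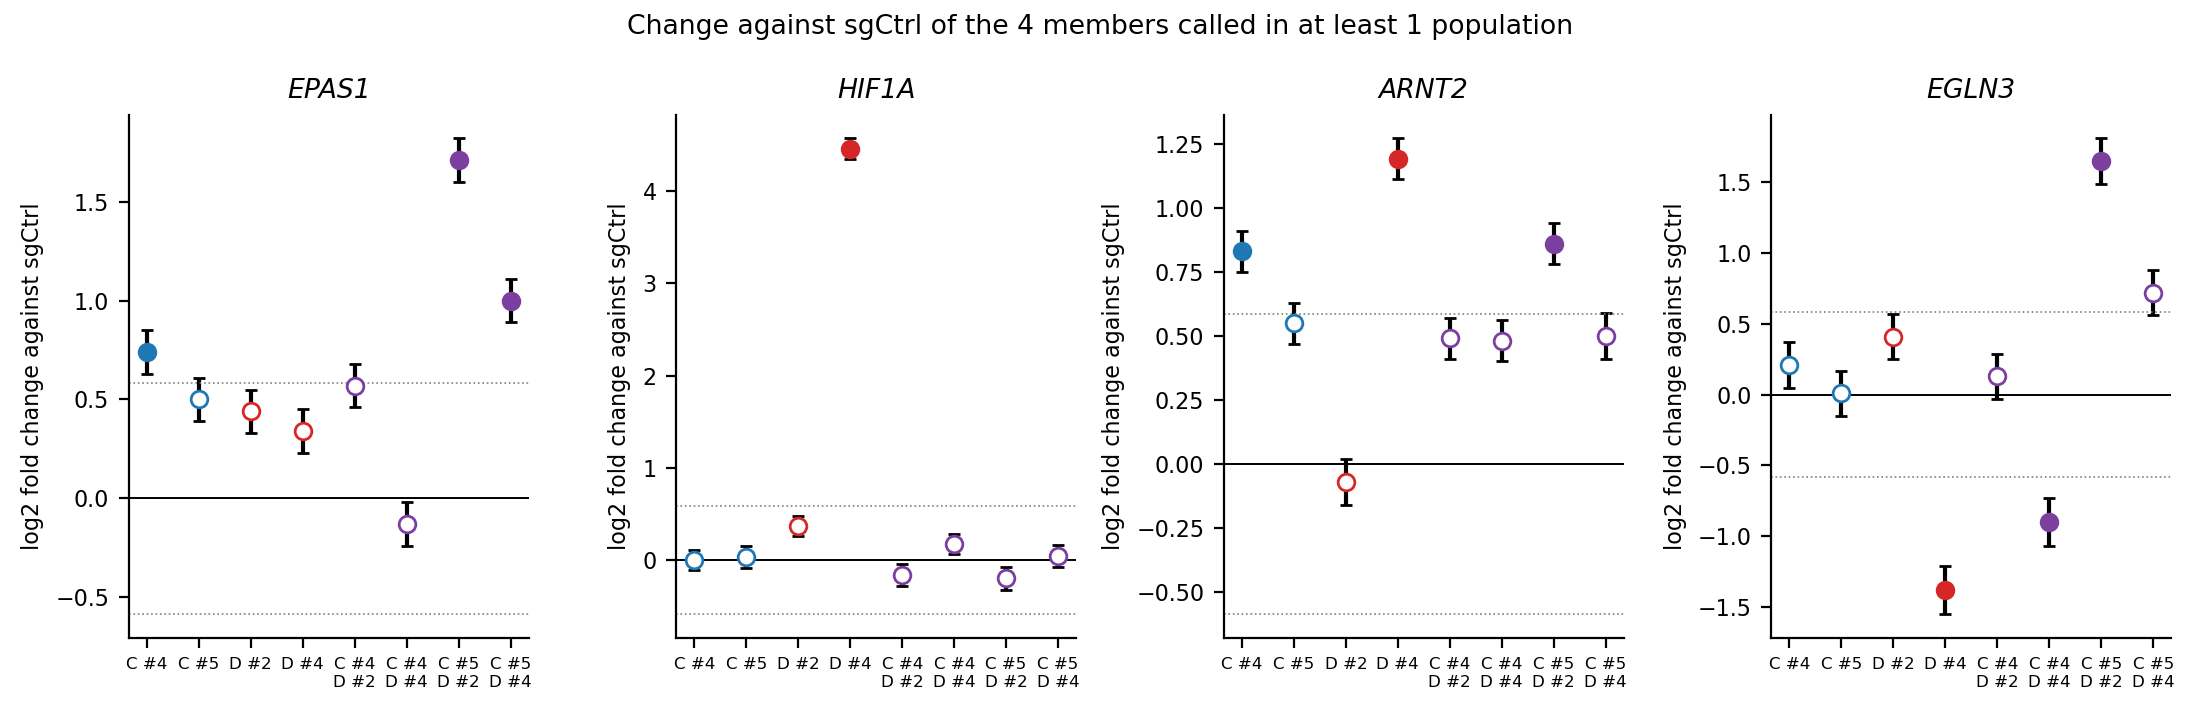
Log2 fold change against sgCtrl, with 1 standard error from edgeR, of the 4 members called in any population; filled points were called and dotted lines mark 1.5-fold. *HIF1A* at 4.46 in sgKDM5D #4, *EPAS1* at 1.71 and *EGLN3* at 1.65 in sgKDM5C #5 sgKDM5D #2 stand furthest above 0, and *EGLN3* at -1.38 in sgKDM5D #4 furthest below.

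*EPAS1*, the gene of the α subunit on which 786-O cells rely, was called higher in 3 mutant populations, and its mean was above that of sgCtrl in 7 of 8. In sgCtrl its level was 91.1, 85.3 and 97.7 CPM in the 3 libraries. With sgKDM5C #4 it was 150.0, 157.0 and 149.0 CPM, all above sgCtrl, a log2 fold change of 0.74 ± 0.11 (SE; edgeR adjusted p = 1.3e-05). With sgKDM5C #5 it was 160.0, 126.0 and 104.0 CPM. These libraries were also all above sgCtrl but spread more widely, and the change of 0.50 ± 0.11 (edgeR adjusted p = 0.0011) was not called. Without sgKDM5C #5 replicate 3, the lowest of them, it was 0.64 (edgeR adjusted p = 5.3e-05) and was called.

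The libraries labelled sgKDM5D #2 had *EPAS1* at 133.0, 123.0 and 116.0 CPM and those labelled sgKDM5D #4 at 110.0, 109.0 and 129.0 CPM. All 6 were above sgCtrl, but the log2 changes of 0.44 (edgeR adjusted p = 0.0043) and 0.34 (0.011) were not called. The 50 nearest tested genes on chromosome 2 had a median log2 change of -0.35 in sgKDM5D #4, and relative to them *EPAS1* changed by 0.69 (edgeR adjusted p = 1.1e-05), which was called. Relative to its neighbours it was also called in sgKDM5C #5, at 0.69 (4.4e-05), and in sgKDM5C #4 sgKDM5D #2, at 0.68 (3.4e-05).

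Among the double mutant populations the level of *EPAS1* differed most. It was 283.0, 316.0 and 299.0 CPM in sgKDM5C #5 sgKDM5D #2, the highest 3 values of all 27 libraries, with a log2 change of 1.71 ± 0.11 against sgCtrl (3.28-fold; edgeR adjusted p = 4.9e-12). Its level was 182.0, 175.0 and 190.0 CPM in sgKDM5C #5 sgKDM5D #4, 1.0 ± 0.11 above sgCtrl (7.8e-08). In sgKDM5C #4 sgKDM5D #2 it was 120, 143.0 and 143.0 CPM, with a change of 0.57 ± 0.11 (2.9e-04) just under the limit of 1.5-fold, which was called without sgCtrl replicate 3, at 0.62 (7.1e-04), or without its own replicate 1, at 0.65 (1.5e-04). In sgKDM5C #4 sgKDM5D #4 it was 76.4, 93.9 and 80.9 CPM, which overlapped sgCtrl, with a change of -0.13 and an interval of -0.34 to 0.09 (edgeR adjusted p = 0.4). The order of means therefore ran from sgKDM5C #5 sgKDM5D #2 through sgKDM5C #5 sgKDM5D #4 and sgKDM5C #4 to sgKDM5C #4 sgKDM5D #2, and the libraries of these 4 did not overlap between neighbours. The next neighbours, from sgKDM5C #4 sgKDM5D #2 through sgKDM5C #5 and sgKDM5D #2 to sgKDM5D #4, overlapped, as did sgCtrl and sgKDM5C #4 sgKDM5D #4.

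Set against the single mutant populations that carry their guides, the double mutant populations differed among each other in *EPAS1*. The level in sgKDM5C #5 sgKDM5D #2 was 1.21 ± 0.11 (log2) above sgKDM5C #5 (edgeR adjusted p = 7.3e-09) and 1.27 ± 0.11 above the population labelled sgKDM5D #2 (9.5e-10), comparisons that called 8.56% and 10.3% of all tested genes. That in sgKDM5C #4 sgKDM5D #4 was below sgKDM5C #4, at -0.86 ± 0.11 (1.7e-06; 3.57% of all genes called), and at -0.47 ± 0.11 (6.8e-04) against sgKDM5D #4, under the fold limit. This second contrast was called with the median change of its neighbours removed, at -0.90 (1.6e-07), and with that of its chromosome removed, at -0.71 (4.9e-06). In sgKDM5C #5 sgKDM5D #4 it was 0.66 ± 0.11 (1.2e-05) above sgKDM5D #4, which was called, and 0.49 ± 0.11 (0.0043) above sgKDM5C #5, which was not called with all libraries but was without sgKDM5C #5 replicate 1, at 0.67 (9.2e-05). The call against sgKDM5D #4 was lost with the neighbour median removed, at 0.46 (0.001), and with the chromosome median removed, at 0.51 (3.2e-04). Neither contrast of sgKDM5C #4 sgKDM5D #2 was called, at -0.17 (interval -0.38 to 0.04; 0.82) against sgKDM5C #4 and 0.12 (-0.09 to 0.33; 0.45) against sgKDM5D #2. The interaction, which is the double mutant change minus the sum of its single mutant changes, was called at an adjusted p under 0.05 with no limit on the fold. It was called in sgKDM5C #5 sgKDM5D #2 at 0.76 ± 0.15 (7e-04) and, with the other sign, in sgKDM5C #4 sgKDM5D #2 at -0.61 ± 0.15 (0.0085) and sgKDM5C #4 sgKDM5D #4 at -1.20 ± 0.15 (5.8e-07). It was 0.15 ± 0.15 (0.48) in sgKDM5C #5 sgKDM5D #4, and over the mean of all populations -0.23 ± 0.12 (0.16), which was called without sgKDM5C #5 replicate 3, at -0.29 (0.034), and with the neighbour or the chromosome median removed, at -0.48 (0.0034) and -0.39 (0.015). The value in sgKDM5C #4 sgKDM5D #2 was -0.49 (0.053) without the 4 libraries that stood apart. Of all tested genes, interactions were called for 21.8% in sgKDM5C #5 sgKDM5D #2, 12.7% in sgKDM5C #4 sgKDM5D #2, 38.3% in sgKDM5C #4 sgKDM5D #4 and 36.9% in sgKDM5C #5 sgKDM5D #4.

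*HIF1A*, the gene of the other main α subunit, had a low level in every population but the one labelled sgKDM5D #4. Its level was 4.03, 5.14 and 5.51 CPM in sgCtrl and 115.0, 106.0 and 105.0 CPM (2574, 3022 and 2448 counts) in sgKDM5D #4. The 3 libraries were far above the other 24, and the log2 change was 4.46 ± 0.11 (22.1-fold; edgeR adjusted p = 2.9e-21). The library totals of the antisense genes HIF1A-AS1 and HIF1A-AS3 in sgKDM5D #4, 13 and 2 counts, are small beside these. In the libraries labelled sgKDM5D #2, which carry another guide against the same gene, *HIF1A* was 6.71, 6.39 and 5.95 CPM. These were all above sgCtrl, with a change of 0.37 ± 0.11 (edgeR adjusted p = 0.02) that was not called, and sgKDM5D #2 minus sgKDM5D #4 was -4.09 ± 0.11 on the log2 scale (1.1e-20). Between these guides 3 of 9 members were called, against 20.8% of all tested genes, and between the guides against *KDM5C* 0, against 3.71%.

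The high level of *HIF1A* was not found in the populations that carry sgKDM5D #4 together with a guide against *KDM5C*. Its level was 5.86, 5.63 and 5.13 CPM in sgKDM5C #4 sgKDM5D #4 and 5.35, 4.34 and 5.44 CPM in sgKDM5C #5 sgKDM5D #4. Both ranges overlapped sgCtrl, with log2 changes of 0.17 (interval -0.05 to 0.39; edgeR adjusted p = 0.26) and 0.04 (-0.18 to 0.27; 0.82). Against the libraries labelled sgKDM5D #4 the changes were -4.29 ± 0.11 and -4.42 ± 0.11 (5.4e-21 and 1.7e-21), in comparisons that called 23.0% and 22.4% of all tested genes. With sgKDM5C #4 alone the level was 4.93, 4.89 and 4.9 CPM, and with sgKDM5C #5 5.08, 4.9 and 5.07 CPM. With sgKDM5C #4 sgKDM5D #2 it was 4.78, 4.04 and 4.36 CPM, and in sgKDM5C #5 sgKDM5D #2 4.26, 3.69 and 4.96 CPM. None of these 4 populations passed the test, and their changes lay between -0.20 and 0.03.

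The mean interaction of *HIF1A* was -2.47 ± 0.12 (edgeR adjusted p = 2.1e-14), one of 4 interactions called among 9 members, against 26.5% of all tested genes. Taken over the populations with sgKDM5D #2 only, it was -0.56 ± 0.14 (0.0071) and was called, as 1 of 9 members against 14.4% of all genes. That of *EGLN3* was also called there without sgKDM5D #2 replicate 1, at 0.64 (0.019), or with no filter on low counts, at 0.38 (0.02). That of *HIF1AN* was called without sgKDM5C #4 sgKDM5D #2 replicate 1, at 0.24 (0.047), or relative to its neighbours, at 0.40 (0.0043). It was also called without the 4 libraries that stood apart, at 0.31 (0.0086), or with a term for them, at 0.26 (0.0095). With that term the interaction of *EGLN1* was called too, at -0.21 (0.047). The size of the mean interaction of *HIF1A* thus rests on the libraries labelled sgKDM5D #4.

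The ratio of *EPAS1* to *HIF1A* within a library does not depend on the scaling between libraries. Per kilobase, *EPAS1* mRNA was 12.7 to 17.3 times that of *HIF1A* in sgCtrl (14.5 ± 2.44). In the libraries labelled sgKDM5D #4 the ratio was 0.731 to 0.943 (0.821 ± 0.109), so that these were the only libraries with less *EPAS1* than *HIF1A*. It was 46.1 to 65.7 in sgKDM5C #5 sgKDM5D #2 and 26.1 to 30.9 in sgKDM5C #5 sgKDM5D #4, both clear of sgCtrl. With sgKDM5C #4 (23.3 to 24.5) and sgKDM5C #4 sgKDM5D #2 (19.2 to 27) it was also above the range of sgCtrl, and with sgKDM5C #5 (15.7 to 24.0) it overlapped it. In the libraries labelled sgKDM5D #2 it was 14.8 to 15.2, within the range of sgCtrl. With sgKDM5C #4 sgKDM5D #4 it was 9.98, 12.8 and 12.1, so that 2 of the 3 libraries lay below that range.

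**Figure D3:**
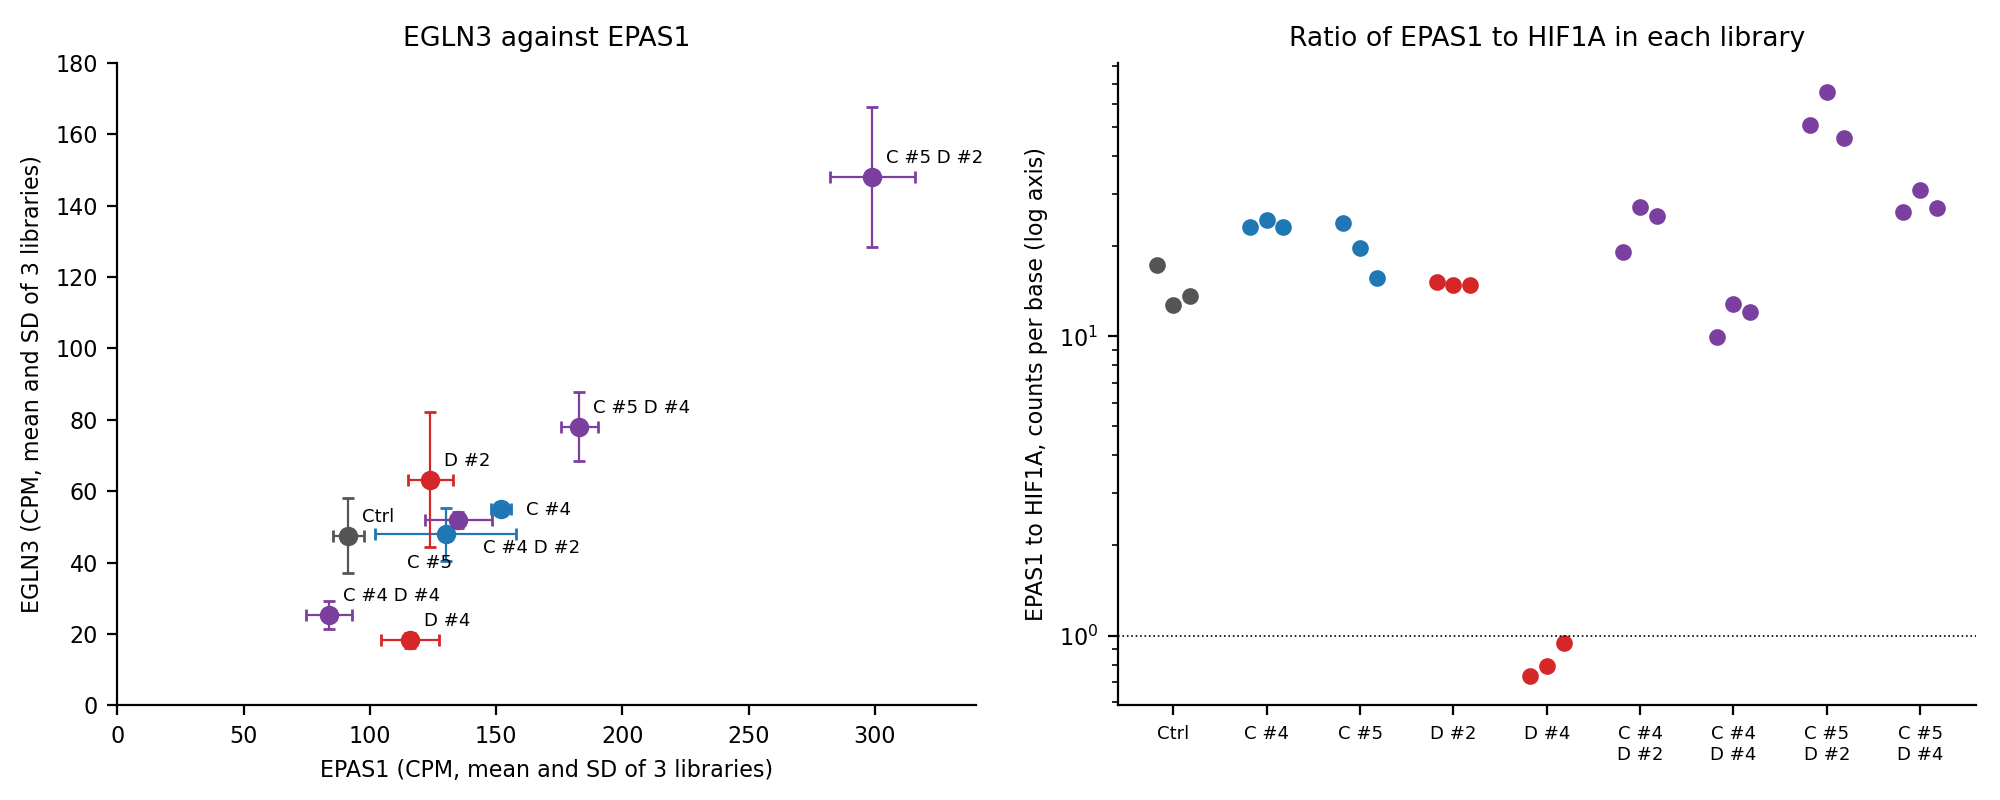
Left, mean and SD over 3 libraries of *EGLN3* and *EPAS1* in CPM in each population; right, the ratio of *EPAS1* to *HIF1A* per base of transcript in each library, on a log axis. *EGLN3* is highest, at 148 CPM, where *EPAS1* is highest, at 299 CPM, and the ratio is below 1 in the libraries labelled sgKDM5D #4 alone.

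Of the β subunits, *ARNT* did not pass the test in any population, while *ARNT2* was called higher in 3. *ARNT*, the usual partner of the α subunits, was 49.8, 48.1 and 52.2 CPM in sgCtrl, and all its changes lay between -0.20 and 0.15 on the log2 scale. The change furthest from 0 was that of sgKDM5C #4 sgKDM5D #4 (47.1, 43 and 40.6 CPM; -0.20 ± 0.07, edgeR adjusted p = 0.025). The 50 nearest tested genes on chromosome 1 had a median change of -0.23 in that population.

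*ARNT2*, a β subunit known best from neural tissue, was 12.8, 9.9 and 11.7 CPM in sgCtrl. It was 20.9, 20.4 and 19.8 CPM with sgKDM5C #4, all above sgCtrl, with a log2 change of 0.83 ± 0.08 (edgeR adjusted p = 2.9e-08). With sgKDM5C #5 it was 17.9, 16.0 and 16.6 CPM, a change of 0.55 ± 0.08 (1.8e-05) that stayed under the limit of 1.5-fold. Without sgCtrl replicate 1 this was 0.64 (1e-05) and without sgKDM5C #5 replicate 2 it was 0.59 (5.6e-05), and both were called.

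The guides against *KDM5D* differed for *ARNT2*. The libraries labelled sgKDM5D #2 were at 10.6, 10.5 and 11.5 CPM, within the range of sgCtrl, with a change of -0.07 (interval -0.24 to 0.10; edgeR adjusted p = 0.58). Those labelled sgKDM5D #4 were at 26.2, 24.9 and 27.1 CPM, the highest 3 of all libraries, with a change of 1.19 ± 0.08 (5.7e-12). The difference between these guides was -1.26 ± 0.08 (2e-12). In the double mutant populations *ARNT2* was 15.6, 16.9 and 15.7 CPM in sgKDM5C #4 sgKDM5D #2, 16.6, 16.1 and 15.2 CPM in sgKDM5C #4 sgKDM5D #4, and 16.3, 15.5 and 16.9 CPM in sgKDM5C #5 sgKDM5D #4. All 9 libraries lay above sgCtrl and below sgKDM5C #4, and the changes of 0.48 to 0.50 (edgeR adjusted p of 5e-05 to 8.6e-05) were under the fold limit. That of sgKDM5C #5 sgKDM5D #4 was called without sgCtrl replicate 1, at 0.59 (2.1e-05). It was 20.8, 21.7 and 19.8 CPM in sgKDM5C #5 sgKDM5D #2 and was called, at 0.86 ± 0.08 (8e-09). The mean interaction was -0.67 ± 0.09 (2.5e-06), but over the populations with sgKDM5D #2 it was 0.06 ± 0.10 (0.79), so it too rests on sgKDM5D #4. Per kilobase, *ARNT* was 5.38 to 6.73 times *ARNT2* in sgCtrl, 2.47 to 2.78 times in sgKDM5D #4 and 6.41 to 7.65 times in sgKDM5D #2.

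Of the prolyl hydroxylases, *EGLN3* changed in both directions, and *EGLN1* and *EGLN2* did not pass the test in any population. *EGLN3*, which encodes PHD3, was 39.1, 44 and 59.2 CPM in sgCtrl. Its level reached 167.0, 151.0 and 128.0 CPM in sgKDM5C #5 sgKDM5D #2, above all other libraries, with a log2 change of 1.65 ± 0.16 (3.13-fold; edgeR adjusted p = 1e-08). With sgKDM5C #5 sgKDM5D #4 it was 70.6, 75.0 and 88.9 CPM, also all above sgCtrl, and the change of 0.72 ± 0.16 (0.0013) narrowly missed the call. It was called by DESeq2, at 0.70 (1.6e-04), and by edgeR without sgCtrl replicate 3, at 0.91 (3e-04), or without replicate 1 or 3 of sgKDM5D #2, at 0.71 (2.7e-04) and 0.72 (7.7e-04).

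*EGLN3* was lower in the population labelled sgKDM5D #4 and in its combination with sgKDM5C #4. In the libraries labelled sgKDM5D #4 it was 15.9, 19.2 and 19.7 CPM, the lowest 3 of all libraries, with a change of -1.38 ± 0.17 (2.60-fold lower; edgeR adjusted p = 1.9e-07). The combination gave 21.4, 29.0 and 25.9 CPM, again all below sgCtrl, with a change of -0.90 ± 0.17 (1.1e-04). That call was lost without sgCtrl replicate 3, at -0.71 (0.0023), without sgKDM5C #4 sgKDM5D #4 replicate 1, at -0.79 (0.0016), without the 4 libraries that stood apart, at -0.96 (0.0011), and with the compared populations alone in the fit, at -0.89 (0.0033).

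The remaining populations overlapped sgCtrl in *EGLN3*. It was 54.7, 55.2 and 54.8 CPM with sgKDM5C #4 and 55.5, 47.4 and 40.9 CPM with sgKDM5C #5, with changes of 0.21 and 0.01. It was 49.6, 52.0 and 54.2 CPM in sgKDM5C #4 sgKDM5D #2, and 84.8, 55.0 and 49.8 CPM in the libraries labelled sgKDM5D #2, of which the first stood above the others (change 0.41 ± 0.16, edgeR adjusted p = 0.069). The libraries labelled sgKDM5D #2 were 1.79 ± 0.17 (1.8e-09) above those labelled sgKDM5D #4. The mean interaction was 0.77 ± 0.17 (0.0013), from 2.09 ± 0.24 (7.7e-08) in sgKDM5C #5 sgKDM5D #4 and 1.22 ± 0.23 (3.3e-04) in sgKDM5C #5 sgKDM5D #2 to 0.27 ± 0.24 (0.4) in sgKDM5C #4 sgKDM5D #4 and -0.49 ± 0.23 (0.16) in sgKDM5C #4 sgKDM5D #2. The value in sgKDM5C #4 sgKDM5D #4 was called with the median change of its neighbours removed, at 0.97 (0.0024), and with that of its chromosome removed, at 0.95 (0.0026).

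*EGLN1*, the gene of PHD2, the main oxygen sensor in most tissues, was highest in the libraries that stood apart from their replicates. Its level was 41.1, 56.0 and 42.9 CPM in sgCtrl, 42.7, 59.2 and 46.3 CPM in sgKDM5C #5, 61.2, 43.3 and 45.2 CPM in sgKDM5C #4 sgKDM5D #2 and 41.3, 46.0 and 58.4 CPM in sgKDM5C #4 sgKDM5D #4. In each the high value is that of the library that stood apart. These 4 libraries were at 56.0 to 61.2 CPM, 1.33 to 1.38 times the mean of their 2 replicates, and the other 23 lay between 41.1 and 52.5 CPM. The changes against sgCtrl were -0.06 to 0.11 with all libraries. Without the 4 libraries they were 0.25 (edgeR adjusted p = 0.011) in sgKDM5D #2 and 0.23 (0.01) in sgKDM5C #5 sgKDM5D #2, which were not called. *EGLN2*, which encodes PHD1, lay between 4.31 and 8.02 CPM in all libraries, and its change furthest from 0 was 0.41 ± 0.17 (edgeR adjusted p = 0.065) in sgKDM5C #5 sgKDM5D #4.

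*HIF1AN* and *VHL*, the genes of FIH and of the ligase subunit that 786-O cells lack as a working protein, were not called against sgCtrl in any population. *HIF1AN* was 109.0, 92.5 and 98.5 CPM in sgCtrl and 80.8, 77.8 and 82.8 CPM with sgKDM5C #4, all below sgCtrl (-0.31 ± 0.08, edgeR adjusted p = 0.0032). With sgKDM5C #5 it was 104.0, 95.5 and 97.5 CPM, within the range of sgCtrl. The libraries labelled sgKDM5D #2 (mean 88.6 CPM) and sgKDM5D #4 (88.4 CPM) were also all below sgCtrl, with changes of -0.17 in both (0.11 and 0.059). Its means with sgKDM5C #4 sgKDM5D #2 and with sgKDM5C #4 sgKDM5D #4 were 81.1 and 84.1 CPM, while those with the sgKDM5C #5 combinations were 102 and 105 CPM. Its mean interaction of 0.22 ± 0.08 was called (0.038), but not without a filter on low counts (0.091), relative to its chromosome (0.12) or in 9 of the 27 fits without one library, among which sgCtrl replicate 1 moved it most, to 0.16 (0.18).

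*VHL* was 30.7, 38.0 and 30.6 CPM in sgCtrl, where the second library is again the one that stood apart, and *VHL* was highest in that library in all 4 populations concerned, at 1.11 to 1.24 times the mean of the others. It was 40.2, 43.3 and 36.1 CPM in the libraries labelled sgKDM5D #4, a change of 0.27 ± 0.10 (edgeR adjusted p = 0.024) that was not called. The 50 nearest tested genes on chromosome 3 had a median change of 0.33 there, and *VHL* changed by -0.06 (0.66) relative to them and by 0.14 (0.26) relative to its chromosome. In sgKDM5C #4 sgKDM5D #2 it was 28, 24.8 and 24.7 CPM, all below sgCtrl, at -0.36 ± 0.10 (0.0074). Between sgKDM5C #4 sgKDM5D #4 and sgKDM5D #4 it fell by 0.59 (1e-05), which was called. The change was -0.37 (0.0024) relative to its chromosome and -0.04 (0.77) relative to its neighbours, neither of them called. This call, close to the fold limit, was also lost by DESeq2, at -0.57, with RLE factors, no filter or edgeR's filterByExpr, at -0.55 to -0.58, and without any one of 5 single libraries, at -0.53 to -0.57.

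*HIF1A* and *EGLN3* lie on the same chromosome and moved in opposite directions in the libraries labelled sgKDM5D #4. There, the 516 tested genes of chromosome 14 had a median log2 change of 0.75, and the 50 tested genes nearest to each member had medians of 0.73. In the other 7 populations the chromosome median lay between -0.01 and 0.10. Relative to its neighbours *HIF1A* was still higher, by 3.74 (edgeR adjusted p = 5.1e-20), and *EGLN3* was lower by -2.10 (1.5e-10). Among the near neighbours of *HIF1A*, SNAPC1 was 3.7 CPM in sgCtrl and 18 CPM in sgKDM5D #4, and LINC03033 was 1.61 and 11.6 CPM. Their log2 changes were 2.28 and 2.83, and the other tested genes next to *HIF1A* changed by -0.48 to 1.36. SNAPC1 and LINC03033 were named after their values were seen. In sgKDM5C #4 sgKDM5D #4 and sgKDM5C #5 sgKDM5D #4, which carry the same sgKDM5D guide, the chromosome median lay within that range. What sets the shift in the libraries labelled sgKDM5D #4 was not tested, and the effect of the guide and a property of this pool of cells cannot be told apart in them.

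**Figure D4:**
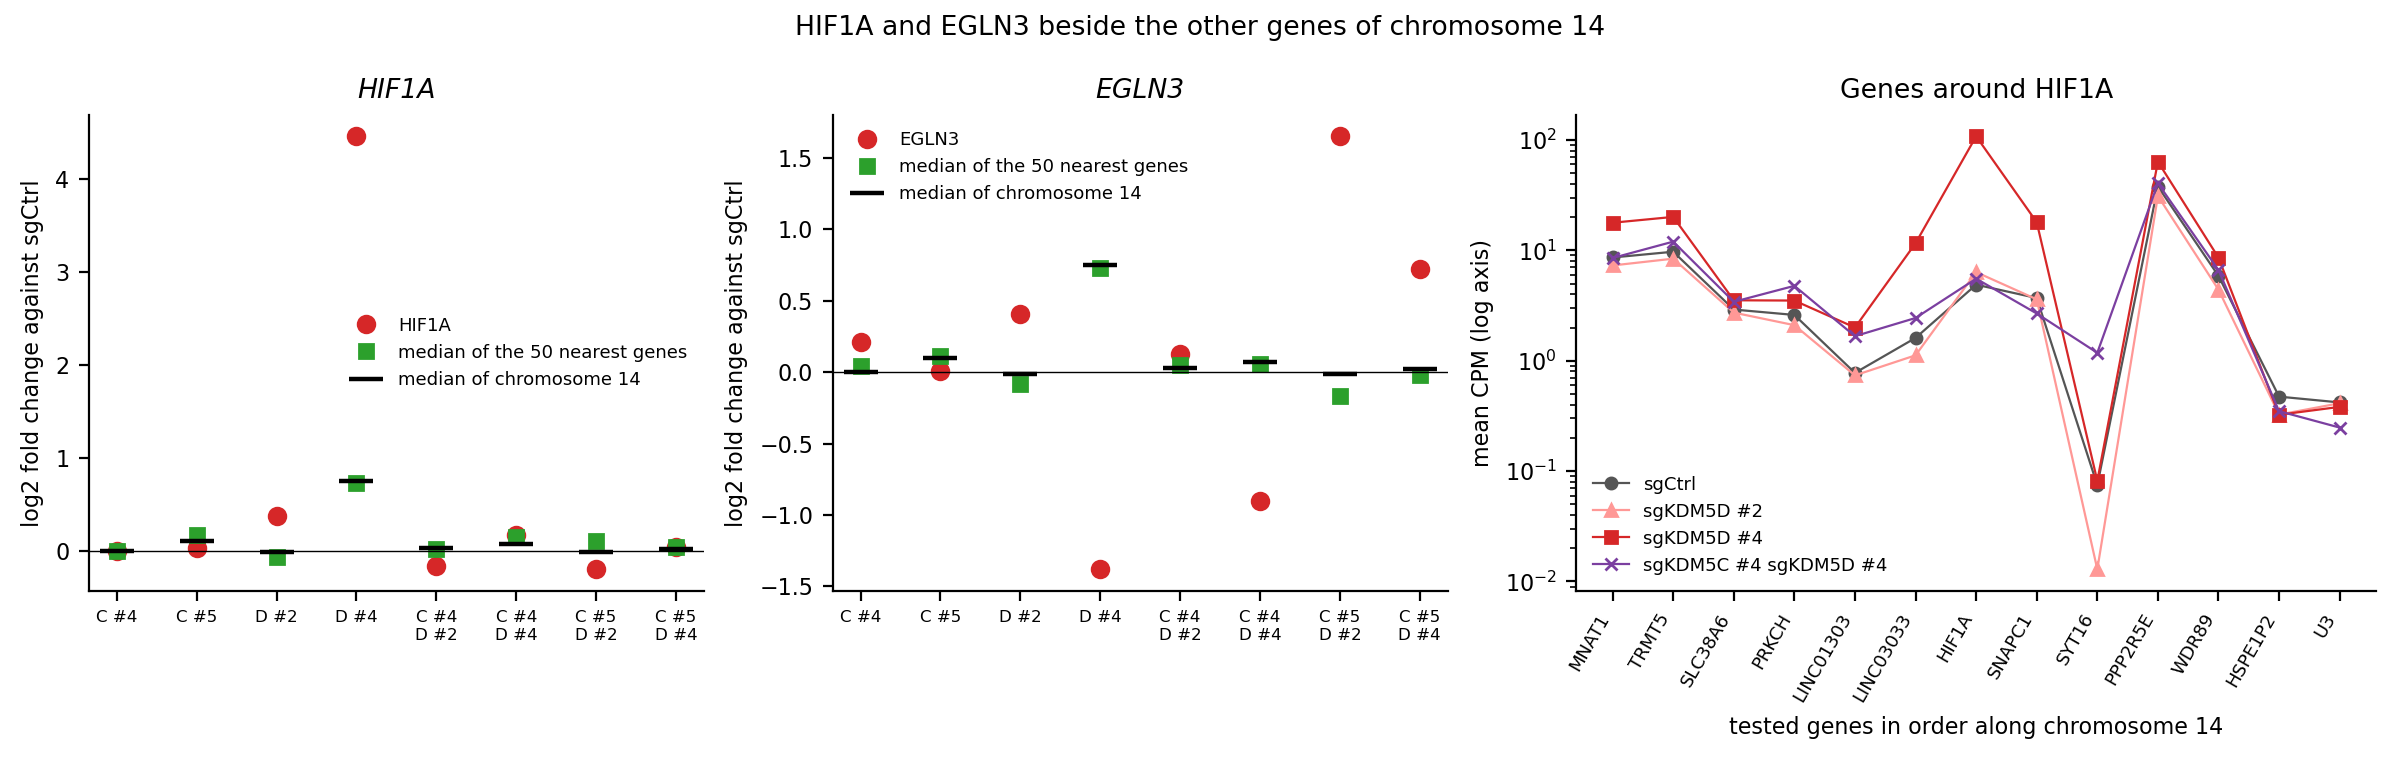
Left and middle, log2 fold change against sgCtrl of *HIF1A* and *EGLN3* (circles), the median of their 50 nearest tested genes (squares) and the median of chromosome 14 (lines) by population; right, mean CPM, on a log axis, of tested genes in order along the chromosome around *HIF1A* in 4 populations. The medians stand at 0.73 and 0.75 in sgKDM5D #4, with *HIF1A* far above them and *EGLN3* below.

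*EGLN3* had its highest means in sgKDM5C #5 sgKDM5D #2 and sgKDM5C #5 sgKDM5D #4, where *EPAS1* was highest too. Over log2 of the 9 population means in CPM, Pearson's r was 0.81 and Spearman's rho 0.85, and r was 0.49 over the 7 populations left without those lowest and highest in *EPAS1*. For *EPAS1* and *HIF1A* r was -0.22 and rho -0.52. These are descriptions over populations that share guides. The genes whose pattern over the 9 populations was most like that of *EPAS1* were PLIN2, which encodes a coat protein of lipid droplets (r = 0.973), PTHLH, which encodes parathyroid hormone-related protein (0.972), and VKORC1 (0.963), of 5622 genes compared. For *EGLN3* they were C3, the complement component (0.987), RERE (0.971) and CMIP (0.961). For *HIF1A* they were CDC42BPB (0.994) and CHD8 (0.99), both on chromosome 14, and IGBP1 (0.993). These values rest on the population labelled sgKDM5D #4 alone, in which *HIF1A* was 108 CPM against means of 4.3 to 6.35 CPM elsewhere, so that a gene high there only gives an r near 1. For *EGLN1* the likeness was lower, with INTS6L at 0.70, TCEAL8 at 0.692 and TUSC1 at 0.684.

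A list of 40 other genes of the HIF pathway held the partners of VHL in its ligase, coactivators, chaperones and other regulators, and 35 of them were tested. In sgKDM5C #4 3 of them were called (8.57%, beside 4.98% of all tested genes) and in sgKDM5C #5 2 (5.71%, beside 5.0%), all higher. In the libraries labelled sgKDM5D #2 there were 2 (5.71%, beside 3.23%), of which 1 was higher, and in those labelled sgKDM5D #4 6 (17.1%, beside 18.1%), of which 5 were higher. The double mutant populations had 3 in sgKDM5C #4 sgKDM5D #2 (8.57%, beside 6.06%), 2 in sgKDM5C #4 sgKDM5D #4 (5.71%, beside 9.1%), 5 in sgKDM5C #5 sgKDM5D #2 (14.3%, beside 12.7%) and 1 in sgKDM5C #5 sgKDM5D #4 (2.86%, beside 7.18%). These shares lay near those of all tested genes. The only gene of this list called the same way in both sgKDM5C and in both sgKDM5D populations was FHL1, which encodes a LIM-domain protein known to bind HIF-1α. It was 14.2 ± 1.96 CPM (SD, n = 3) in sgCtrl, 24.5 ± 1.89 with sgKDM5C #4, 28.5 ± 1.64 with sgKDM5C #5, 21.9 ± 1.22 with sgKDM5D #2 and 33.3 ± 2.23 with sgKDM5D #4. Its log2 changes were 0.78 and 1.0 with sgKDM5C (edgeR adjusted p at most 3.9e-07) and 0.62 and 1.22 with sgKDM5D (at most 2.5e-05). It reached 62.1 ± 5.94 CPM in sgKDM5C #5 sgKDM5D #2 and was 18.4 ± 0.363 CPM in sgKDM5C #5 sgKDM5D #4, the only mutant population in which it was not called.

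A second list held 30 genes known as targets of HIF, of which 28 were tested. Its calls were most frequent in the double mutant populations with sgKDM5C #5. *EPAS1* was highest there too. In sgKDM5C #4, where *EPAS1* was also called higher, 1 target was called (3.57%, beside 4.98% of all tested genes). A link between the level of *EPAS1* and these calls was not tested. In sgKDM5C #5 sgKDM5D #2 11 of 28 were called, all higher (39.3%, against 12.7% of all genes), with a median log2 change over the list of 0.53. In sgKDM5C #5 sgKDM5D #4 10 were called, 9 of them higher (35.7%, against 7.18%), with a median of 0.53. The median over all tested genes lay between -0.013 and 0.017 in every population. Genes called in both included ADM, which encodes adrenomedullin (1.66 and 1.45), SLC2A3, a glucose transporter (2.01 and 1.62), and PLIN2 (1.41 and 0.95). LOX, a lysyl oxidase, went the other way in sgKDM5C #5 sgKDM5D #4, at -2.28. These 4 were named after their values were seen.

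With the sgKDM5C #4 guide in the double mutant populations, 3 of 28 targets were called with sgKDM5D #2 (10.7%, beside 6.06% of all tested genes), all higher. In the single mutant populations 1 was called in sgKDM5C #4 (3.57%, beside 4.98%), 4 in sgKDM5C #5 (14.3%, beside 5.0%), 2 in sgKDM5D #2 (7.14%, beside 3.23%) and 7 in sgKDM5D #4 (25%, beside 18.1%), of which 4 were higher. By the rule set for naming, STC2, a secreted glycoprotein, was called in both sgKDM5C populations, at 164 and 175 CPM against 95.5 ± 6.58 CPM in sgCtrl (log2 0.78 and 0.88, edgeR adjusted p at most 6.1e-08). ANGPTL4, an inhibitor of lipoprotein lipase, was called in both populations labelled sgKDM5D, at 2.77 and 5.57 CPM against 0.929 ± 0.267 CPM (1.56 and 2.56, at most 6.5e-05). Neither gene was called in those populations only. STC2 was also called higher in sgKDM5D #4 (0.85) and sgKDM5C #4 sgKDM5D #2 (0.78). ANGPTL4 was also called higher in sgKDM5C #5 (1.79). Both were called higher in sgKDM5C #5 sgKDM5D #2 (STC2 1.22, ANGPTL4 3.02) and sgKDM5C #5 sgKDM5D #4 (0.86 and 2.90). No gene of either list was called in the same direction in all 4 double mutant populations. Nothing is read from these shares as particular to the lists.

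**Figure D5:**
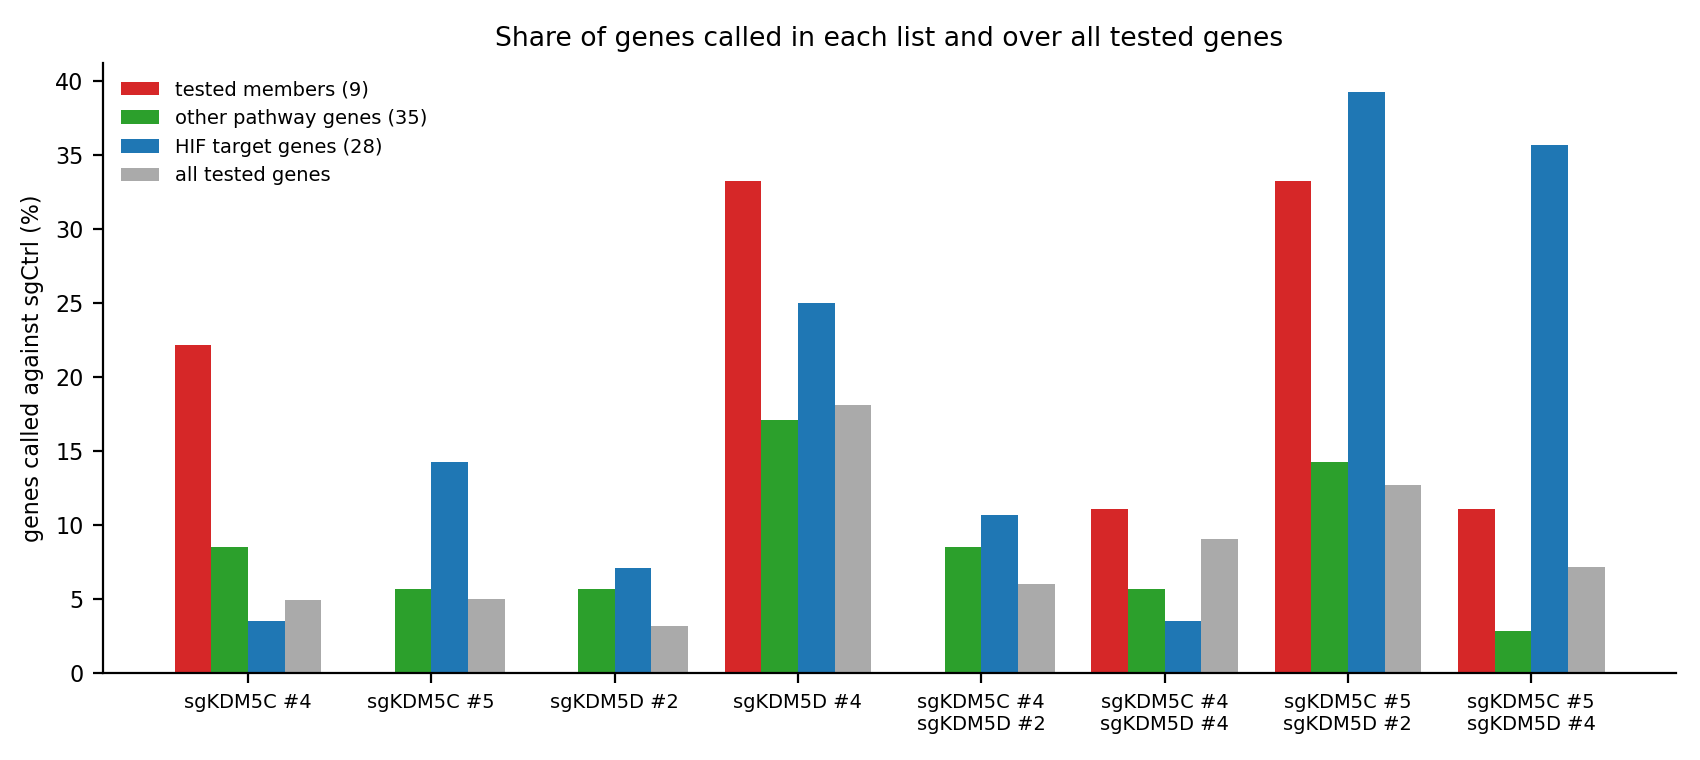
Share of tested genes called against sgCtrl in either direction, in percent, for the members, the pathway list, the target list and all tested genes, by population. The target list stands at 39.3% and 35.7% in the double mutant populations with sgKDM5C #5, beside 12.7% and 7.18% of all genes.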

How the data were processed

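The authors trimmed and aligned paired-end TruSeq Stranded reads of 27 libraries (Trimmomatic 0.38, STAR 2.5.2b and GRCh37 in the submitters' processing notes) and deposited raw counts per Ensembl gene; the counting tool, annotation and strand setting are not given in the sources used here. The 17016 genes with at least 120 counts in all entered edgeR 4.0.16 (R 4.3.3; TMM factors 0.957 to 1.052; one mean per population). Quasi-likelihood tests were two-sided, and Benjamini-Hochberg adjustment ran across every tested gene. Common BCV was 0.0973. CPM use TMM-scaled library sizes. Genes were called at an adjusted p under 0.001 and over 1.5-fold, interactions at an adjusted p under 0.05. Comparisons with sgCtrl were also run on simulated counts, with the common BCV of these data as the spread of every gene. That simulation held no libraries that stood apart. It checked neither interactions nor fits with medians removed.

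The members and lists were chosen with earlier results of these data known. Named by rule were the members, *KDM5C*, *KDM5D*, genes of either list called the same way in both sgKDM5C, both sgKDM5D or all 4 double mutant populations, and the 3 genes most alike in pattern to 4 members. ADM, SLC2A3, LOX, SNAPC1 and LINC03033 did not meet this rule and were named after their values were seen. Alternatives were RLE factors, other filters and thresholds, DESeq2 1.42.0, a replicate term, subsets of populations, leaving out each library, and neighbour or chromosome medians removed. Fits without or with a term for 4 libraries that stood apart, and interactions by guide, were added after the data were seen. The values of some listed genes are not reported here.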

Additional observations from a re-analysis of the deposited data

Results flagged for a closer look

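For members whose change with a sgKDM5D guide differed with and without a sgKDM5C guide, the interaction in the edgeR fit had an adjusted p under 0.05. Over the mean of all populations this was so for *HIF1A* (-2.47 on the log2 scale), *ARNT2* (-0.67), *EGLN3* (0.77) and *HIF1AN* (0.22). Over the populations with sgKDM5D #2 only it was so for *HIF1A* (-0.56). Taken in single double mutant populations, *EPAS1* (-0.61) and *HIF1A* (-0.53) met it in sgKDM5C #4 sgKDM5D #2, and *EPAS1* (-1.20), *HIF1A* (-4.29) and *ARNT2* (-1.54) in sgKDM5C #4 sgKDM5D #4. In sgKDM5C #5 sgKDM5D #2 the values were 0.76 for *EPAS1*, -0.60 for *HIF1A*, 0.38 for *ARNT2* and 1.22 for *EGLN3*. In sgKDM5C #5 sgKDM5D #4 they were -4.45 for *HIF1A*, -1.24 for *ARNT2* and 2.09 for *EGLN3*. The values of *HIF1A* and *ARNT2* in the combinations with sgKDM5D #4 are set by the levels in the libraries labelled sgKDM5D #4, in which both genes were higher than in any other library. The adjusted p of *HIF1A* in sgKDM5C #4 sgKDM5D #2 rose to between 0.054 and 0.091 without any one of 8 single libraries. That of *ARNT2* in sgKDM5C #5 sgKDM5D #2 rose to between 0.053 and 0.083 without any one of 5. Of these, leaving out sgCtrl replicate 1 moved both values most, to -0.41 and 0.30. With no filter on low counts both calls were also lost, at -0.53 (edgeR adjusted p = 0.097) and 0.40 (0.15).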

How the results depend on the processing

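Of 243 results of a member in a comparison, 48 were called, 42 of these under every fit without one library and 29 under every setting. Comparisons between populations called 0.264% to 23.0% of all tested genes, and interactions, at their own threshold, 12.7% to 38.3%. The comparisons share libraries, so these results are not independent, and nothing is read from their number as particular to the members. The counts that follow are sums over the 2 sgKDM5C, 2 sgKDM5D or 4 double mutant populations (or the 2 comparisons between guides), so that a gene counts once in each population in which it was called. At an adjusted p under 0.05 with no fold limit, the calls of members were 6 in sgKDM5C (2 in the report's fit), 7 in sgKDM5D (3), 15 in double mutant populations (5) and 6 between guides (3), and those of list genes were 20, 30 and 61 for the pathway list (5, 8 and 11) and 23, 23 and 71 for the target list (5, 9 and 25). This threshold called 24.0% and 21.4% of all tested genes in sgKDM5C, 22.0% and 47.6% in sgKDM5D, 24.9% to 44.5% in double mutant populations, and 16.2% and 51.8% between guides. At an adjusted p under 0.05 and over 2-fold, which called 4.84% and 4.51% of all genes in sgKDM5C, 3.48% and 13.5% in sgKDM5D and 5.95% to 10.2% in double mutant populations, the calls of members were 0 in sgKDM5C and 2 in double mutant populations, those of pathway genes 5 in sgKDM5D and those of targets 3 in sgKDM5C. Over sgKDM5D #2 alone 1 interaction was called (4 over all). With the neighbour median removed the calls of pathway genes were 3 in sgKDM5C and 4 in sgKDM5D, and 4 in sgKDM5D with the chromosome median removed. With only the compared populations fitted, they were 3 in sgKDM5C and 6 in double mutant populations, and with no filter those of targets were 8 in sgKDM5C. With a term for the 4 libraries that stood apart, the interaction of *EGLN1* in sgKDM5C #4 sgKDM5D #2 turned from 0.05 to -0.27 (edgeR adjusted p = 0.032). In sgKDM5C, sgKDM5D and double mutant populations, leaving out each library gave summed calls of 2 to 3, 3 to 3 and 4 to 6 for members, 3 to 6, 5 to 9 and 8 to 13 for pathway genes, and 4 to 5, 8 to 9 and 23 to 26 for targets; it gave 3 to 3 between guides and 3 to 4 interactions. The causes were not tested. Replicate numbers did not pair libraries (35 of 108 same-number pairs correlated over 0.1; 2 of 27 libraries correlated best with their own number), and with the replicate block 243 of 243 results of members kept their call. At these depths *HIF3A* could not be measured.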
